A study of Mus musculus with 12 samples.

Results

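The genes described here encode enzymes that make, salvage or divert nicotinamide adenine dinucleotide (NAD), measured in whole mouse aorta after a fast. They were chosen by name as 10 genes, each was found through the gene annotation of its listed transcripts, and all 10 were present among the 12286 genes of the table. Aortae came from C57BL/6 mice aged 7 weeks, in 2 groups of 6 libraries: mice labelled control, whose feeding is not described further, and mice fasted for 24 h. Both groups carried no transgene or other treatment that the labels name, and neither substrain, sex nor hour of collection was stated. The comparison asks how the abundance of these messages differs in the aorta after the fast. Whether the libraries of a group are from different animals is not stated, so the p-values reflect only how far these samples spread, which may be partly technical.

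NAD carries electrons in catabolism and is also used up by enzymes that cut it and release nicotinamide. Most tissues rebuild it from that nicotinamide: NAMPT makes nicotinamide mononucleotide, and the NMNAT enzymes turn the mononucleotide into NAD in different compartments of the cell. Other entries are nicotinamide riboside through NMRK1 and nicotinic acid through NAPRT and NADSYN1, while NNMT methylates nicotinamide and takes it out of the cycle. NADK and NADK2 phosphorylate NAD to NADP, and NNT, in the inner mitochondrial membrane, uses the proton gradient to move reducing power from NADH to NADP.

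Of the 10 genes, Nampt and Nmnat3 rose in fasted aortae and Nnmt fell. The remaining 7 did not pass the test. Levels are in FPKM, fragments per kilobase of a transcript, relative to all fragments of the library, and are summed over the listed transcripts of a gene. Differences, given as fasted minus control, are in log2(FPKM + 1) units with the SE of limma, a linear model fitted to all 12062 tested genes, and this scale understates the change of low genes. A gene is called when its Benjamini-Hochberg adjusted p over all of those genes is under 0.05. By that rule 31.7% of all tested genes were called, 13.8% higher and 17.9% lower, so 3 called genes of 10 (30.0%) lie near the background. Without overlap between the groups were 2 of the 10, against 17.0% of all tested genes (6.78% with the fasted group above and 10.2% below). The median difference of the 10 was -0.12, beside -0.02 for all tested genes.

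The stretches of genome shown next are those of the 3 genes that passed. The first pair are the promoter windows of Nampt and Nmnat3, 250 bases before to 50 after the annotated start, from RefSeq on GRCm38.p6, with each GC box (GGGCGG on either strand) in capitals. The Nampt window lies at chr12:32820085-32820384 and the Nmnat3 window at chr9:98296320-98296619, both on the plus strand. The start used is that of Nampt-201 itself, and it lies 13 bases before the annotated start of Nmnat3-201. The last is a stretch of 131 coding bases of Nnmt at chr9:48592183-48592313 on the minus strand of GRCm38, which is in the transcript Nnmt-201 and not in Nnmt-202, and so separates the pair of messages described further on.
Nampt promoter: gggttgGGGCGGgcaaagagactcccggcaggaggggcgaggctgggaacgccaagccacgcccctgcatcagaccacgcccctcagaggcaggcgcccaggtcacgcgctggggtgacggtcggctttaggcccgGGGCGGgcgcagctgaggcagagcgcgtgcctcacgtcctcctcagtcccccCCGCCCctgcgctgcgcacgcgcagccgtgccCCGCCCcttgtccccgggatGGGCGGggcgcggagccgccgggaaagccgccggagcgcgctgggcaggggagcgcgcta
Nmnat3 promoter: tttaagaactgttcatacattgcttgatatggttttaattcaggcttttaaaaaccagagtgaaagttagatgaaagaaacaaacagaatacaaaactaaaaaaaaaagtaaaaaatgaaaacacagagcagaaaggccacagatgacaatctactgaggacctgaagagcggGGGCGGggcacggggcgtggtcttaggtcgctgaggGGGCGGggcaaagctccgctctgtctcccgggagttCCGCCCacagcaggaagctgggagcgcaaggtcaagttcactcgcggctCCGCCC
Nnmt-201 stretch: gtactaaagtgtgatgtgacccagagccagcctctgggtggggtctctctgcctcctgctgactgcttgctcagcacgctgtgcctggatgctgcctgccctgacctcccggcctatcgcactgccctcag

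The Nampt window is 76.3% G and C and holds 5 GC boxes, all before the start. The Nmnat3 window is 49.0% G and C and holds 4, of which 2 lie before the start, 1 reaches from 5 bases before it onto the start base, and 1 begins 44 bases after it. A GC box was present in 35.7% of the 32851 mouse promoter windows of this length. In all, 6 of the 10 genes matched the RefSeq table, with 8 windows between them; Naprt, Nadk2, Nnt and Nnmt had no entry. GC boxes were also present in genes that were not called: 2 for Nadsyn1, 1 in each Nmnat1 window and 1 in 1 of the 2 Nadk windows. The Nmrk1 window and the other Nadk window held 0. Both strands of these windows were also searched for an E-box (CACGTG, in 7.15% of all windows), a cAMP response element (TGACGTCA, 1.79%), a FoxO element (GTAAACA, 3.65%) and a glucocorticoid response element (AGAACA followed after 3 bases by its reverse complement TGTTCT, 0.00913%). A single match was found, an E-box 40 bases before the start in 1 of the 2 Nadk windows. That match overlapped no other, and a match is a description of the sequence only.

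Nampt (ENSMUSG00000020572, chromosome 12, 32819545 to 32853349 on the plus strand of GRCm38) encodes the enzyme that opens nicotinamide salvage, usually regarded as its rate-limiting step. Its level ran from 11.3 FPKM through a median of 12.8 to 14.9 in the controls, and from 18.1 through 24.7 to 30.4 in the fasted group. The groups did not overlap: the lowest fasted library, replicate 3, lay above the highest control library, replicate 4. The mean went from 12.9 ± 1.33 FPKM (SD, n = 6) to 24.9 ± 4.16 (SD, n = 6), a 1.93-fold rise. On the log2 scale the difference was 0.88 ± 0.11 (limma, adjusted p = 6.61e-05). A single transcript of 11 exons, Nampt-201, made up the whole value. Because these are bulk samples, more cells that express a gene and more RNA per cell cannot be told apart, here or for any gene below.

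**Figure D1:**
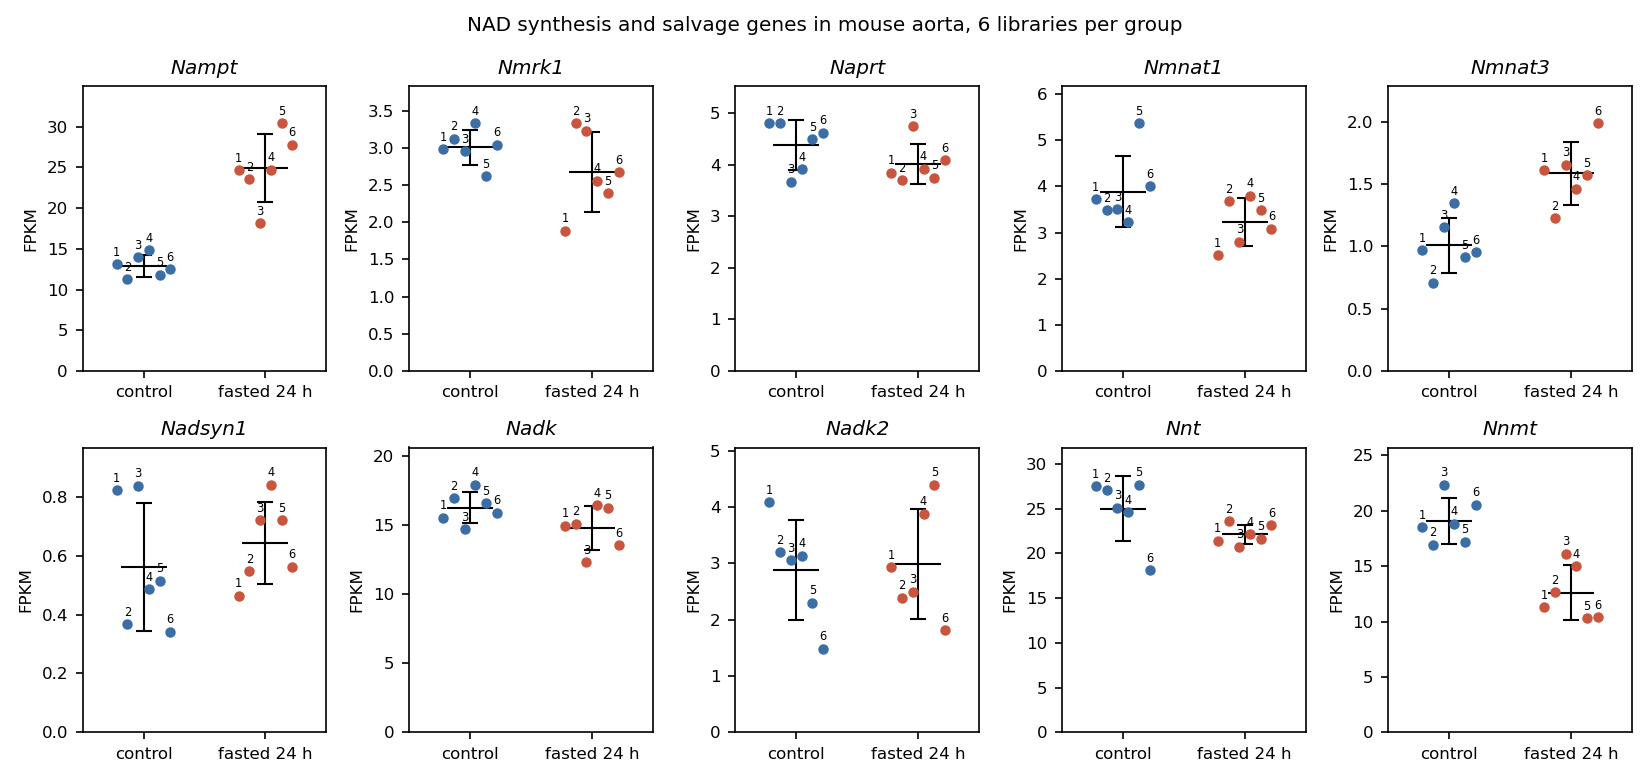
FPKM of each of the 10 genes in every library (points, numbered by replicate), with the mean and SD of each group of 6 as a line and bars; each panel has its own vertical axis from 0. Fasted libraries lie above all controls for Nampt (18.1 to 30.4 against 11.3 to 14.9 FPKM) and below all controls for Nnmt (10.3 to 16.1 against 16.95 to 22.4 FPKM), and control replicate 6 lies apart for Nnt at 18.1 FPKM.

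Nmrk1 (chromosome 19, 18631950 to 18652428, plus strand) encodes the kinase that turns nicotinamide riboside into the mononucleotide. It ranged from 2.62 to 3.34 FPKM in controls and from 1.89 to 3.33 in fasted libraries. The fasted range covered nearly all of the control range, and the difference of -0.14 ± 0.10 did not pass (limma, adjusted p = 0.307). Naprt (chromosome 15, 75890956 to 75894481, minus strand), whose enzyme starts the route from nicotinic acid, ranged from 3.67 to 4.80 FPKM in controls and from 3.70 to 4.74 in fasted libraries. Its groups overlapped almost fully, with a difference of -0.10 ± 0.07 (limma, adjusted p = 0.321).

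The next step joins the mononucleotide to ATP. Nmnat3 (chromosome 9, 98287435 to 98420438, plus strand), which encodes the form assigned to mitochondria, ran from 0.707 FPKM through a median of 0.961 to 1.35 in controls and from 1.22 through 1.59 to 1.99 after the fast. A single fasted library, replicate 2 at 1.22 FPKM, lay below the highest control, replicate 4, and the other 5 lay above every control. The mean rose 1.57-fold, from 1.01 ± 0.219 to 1.59 ± 0.2503 FPKM (SD, n = 6 each), with a difference of 0.37 ± 0.09 (limma, adjusted p = 0.00764). At this low level the log2 difference depends on the constant added before the logarithm, and it was 0.66 with a pseudocount of 0.01 in place of 1.

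Nmnat1 (chromosome 4, 149467572 to 149485202, minus strand), the nuclear form, showed no such rise. It ranged from 3.23 to 5.37 FPKM in controls and from 2.50 to 3.80 in fasted libraries. Control replicate 5 stood above all others, and the difference of -0.21 ± 0.11 did not pass (limma, adjusted p = 0.172). Nmnat2, the form attached to Golgi and axonal membranes and not among the 10 genes, was low, at 0.591 ± 0.305 FPKM (SD, n = 6) in controls and 0.173 ± 0.291 (SD, n = 6) in fasted libraries. It did not pass (-0.45 ± 0.17, limma, adjusted p = 0.0676), although it did without control replicate 4, which was listed at 0 (-0.57, adjusted p = 0.0107). Listed transcripts had a mean of at least 0.50 FPKM in 1 group, and Nmnat2 reached that only in controls. A lower fasted value was thus favoured in advance, and that pass is not counted as a fall. Nadsyn1 (chromosome 7, 143795584 to 143822849, minus strand), whose enzyme completes NAD made from nicotinic acid or tryptophan, was the lowest of the 10. It ranged from 0.342 to 0.837 FPKM in controls and from 0.464 to 0.841 in fasted libraries, with a difference of 0.08 ± 0.10 (limma, adjusted p = 0.573).

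Nadk (chromosome 4, 155562378 to 155591001, plus strand), the cytosolic NAD kinase, ranged from 14.7 to 17.95 FPKM in controls and from 12.3 to 16.5 in fasted libraries. The groups overlapped, and the difference was -0.13 ± 0.07 (limma, adjusted p = 0.178). Nadk2 (chromosome 15, 9071260 to 9110891, plus strand), the mitochondrial kinase, ranged from 1.49 to 4.09 FPKM in controls and from 1.81 to 4.397 in fasted libraries. Its spread within groups was wide, with a coefficient of variation of 30.8% in controls and 32.7% after the fast, and its difference of 0.04 ± 0.19 did not pass (limma, adjusted p = 0.902). The sign of that small difference turned in 6 of 24 alternative analyses.

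Nnt (chromosome 13, 119335448 to 119408997, minus strand), the transhydrogenase, was the most abundant of the 10 genes in controls. It ran from 18.1 FPKM through a median of 26.1 to 27.7 in controls and from 20.8 through 21.9 to 23.6 in fasted libraries. Control replicate 6 was the lowest of all 12 libraries, and the other 5 controls, from 24.6 FPKM up, all lay above the fasted group. Over all libraries Nnt did not pass (25.0 ± 3.605 against 22.1 ± 1.09 FPKM, SD, n = 6 each; -0.16 ± 0.09, limma, adjusted p = 0.200). Without control replicate 6 it was lower in fasted aortae by the same test (-0.24, limma, adjusted p = 0.00436), so that 1 library decides the call. The annotation divides Nnt between 2 gene identifiers that were summed here. Taken apart, neither passed (-0.48, adjusted p = 0.0932 for ENSMUSG00000025453 and -0.10, adjusted p = 0.599 for ENSMUSG00000116207, both limma). The C57BL/6J substrain is known to lack several Nnt exons, and the reference genome is of that substrain. Whether these mice carried the deletion was not tested, since FPKM over annotated exons does not show it.

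Nnmt (ENSMUSG00000032271, chromosome 9, 48591877 to 48605153, minus strand) encodes the methyltransferase that spends S-adenosylmethionine on nicotinamide. It ran from 16.95 FPKM through a median of 18.7 to 22.4 in controls and from 10.3 through 11.96 to 16.1 in fasted libraries. The groups did not overlap, and the fasted library nearest the controls was again replicate 3, followed by replicate 4 at 14.99 FPKM. The mean fell 1.51-fold, from 19.1 ± 2.06 to 12.6 ± 2.46 FPKM (SD, n = 6 each). On the log2 scale the difference was -0.57 ± 0.11 (limma, adjusted p = 0.00188).

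**Figure D2:**
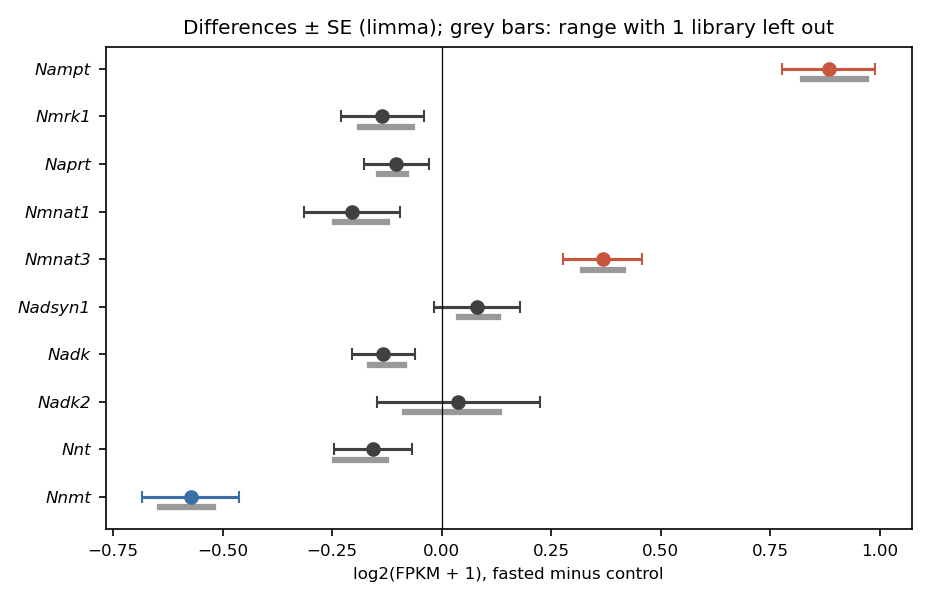
Difference of each of the 10 genes, as log2(FPKM + 1) in fasted less control, drawn as a point with its SE from limma; red and blue mark genes called higher and lower, and each grey bar spans the values obtained when 1 library is left out. Nampt at 0.88, Nmnat3 at 0.37 and Nnmt at -0.57 keep their sign over these bars, and the bar of Nadk2 crosses 0.

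Nampt and Nnmt take the same substrate, nicotinamide, in opposite directions, and the order of their messages in the aorta was exchanged. In controls the ratio of Nampt to Nnmt FPKM lay between 0.608 and 0.789. In fasted libraries it lay between 1.13, in replicate 3, and 2.96, in replicate 5. Nampt was thus below Nnmt in all 6 controls and above it in all 6 fasted libraries, which follows from the levels given for each gene and is not a further test.

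**Figure D3:**
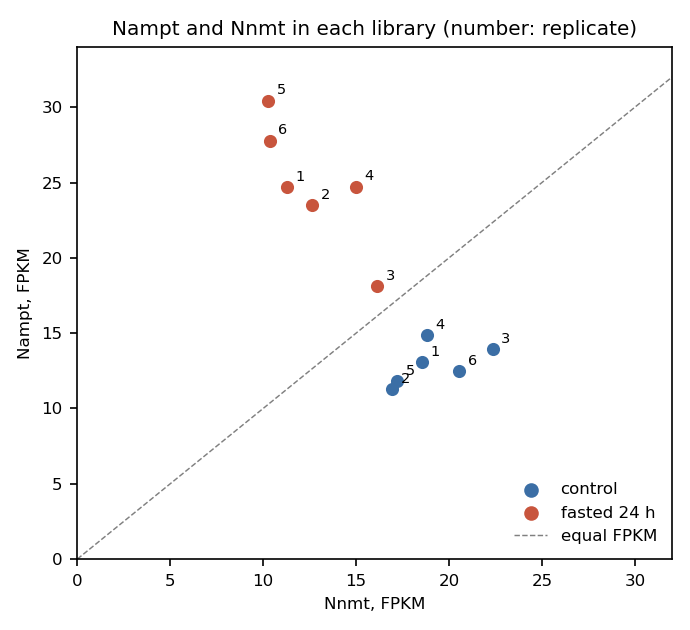
Nampt against Nnmt in every library, both in FPKM, with points numbered by replicate; the broken line marks equal FPKM. All 6 controls lie below the line, with ratios of Nampt to Nnmt of 0.608 to 0.789, and all 6 fasted libraries above it, with fasted replicate 3 nearest to it at 1.13.

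In order of FPKM, which is scaled to transcript length, the controls held Nnt, Nnmt, Nadk and Nampt at means of 12.9 to 25.0. The ranges of neighbours in this order overlapped within these 4. A gap without overlap separated them from Naprt, Nmnat1, Nmrk1 and Nadk2 at 2.88 to 4.38 FPKM, and another gap separated those from Nmnat3 and Nadsyn1. After the fast Nampt stood first at 24.9 FPKM, and its range overlapped that of Nnt at 22.1 FPKM. Nadk and Nnmt followed, below Nnt without overlap, and Nnmt moved from the second place to the fourth. The sum over the 10 genes was 81.5 to 92.1 FPKM per library in controls and 83.0 to 95.0 after the fast, so the groups overlapped in the total.

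The 10 genes were represented by 19 transcripts, 1 each for 5 genes and several for the other 5. Of these, 17 passed the filter on low values and 3 were called, 2 higher and 1 lower, against 16.2% of all 20599 tested transcripts (7.19% higher and 8.98% lower). These were Nampt-201, Nmnat3-201 and Nnmt-201. Nnmt-201, which contains the 131 bases shown above, ran from 13.1 FPKM through 14.8 to 16.3 in controls and from 8.04 through 9.10 to 11.98 after the fast. Its groups did not overlap, with means of 14.7 ± 1.23 and 9.32 ± 1.41 FPKM (SD, n = 6 each) and a difference of -0.61 ± 0.09 (limma over transcripts, adjusted p = 7.93e-04). Nnmt-202, without those bases, went from 4.43 ± 1.06 to 3.29 ± 1.455 FPKM (SD, n = 6 each), with overlapping groups, and did not pass (-0.39 ± 0.22, limma, adjusted p = 0.277). The share of Nnmt-201 in its gene was 77.0% ± 3.37 in controls and 74.7% ± 7.70 after the fast (SD, n = 6 each).

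No transcript share of these genes was called. Limma on the arcsine square root of 14 shares in 5 genes gave adjusted p of 0.449 to 0.988 and 0 shares with an unadjusted p under 0.05, where 0.388% of all 14680 shares were called. Nadk was carried by Nadk-201, at 54.5% ± 6.04 of the gene in controls and 49.5% ± 13.0 after the fast (SD, n = 6 each), and by Nadk-203, at 42.7% ± 8.56 and 44.5% ± 10.4. These transcripts start 1322 bases apart in the annotation. In Nmnat1 and Nadk2 the leading transcript changed from library to library within both groups: Nmnat1-201 ranged from 0.690% to 63.9% of its gene in controls, and Nadk2-202 from 0% to 62.4%.

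Nnt was carried mostly by Nnt-206, at 92.0% ± 7.29 of the gene in controls and 95.9% ± 1.44 after the fast (SD, n = 6 each). In control replicate 6, the library with low Nnt, Nnt-206 stood at 14.0 FPKM against 23.3 to 26.4 in the other controls. Nnt-202 stood at 3.43 FPKM in that library and at no more than 0.141 in the other controls. Both messages are annotated with 17 exons. The positions of these exons were not compared, so how surely reads were divided between the messages is not known. The sum of both messages was still low in that library.

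**Figure D4:**
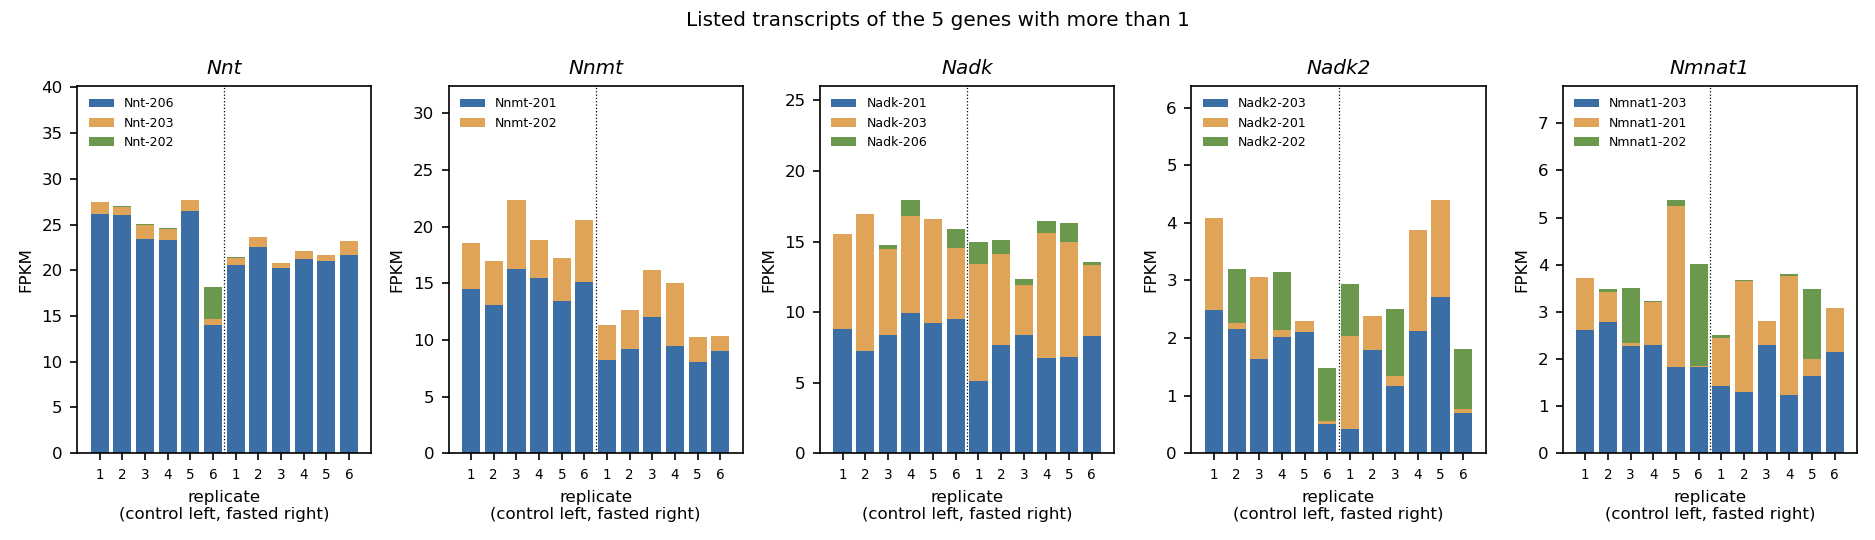
FPKM of the listed transcripts of the 5 genes with more than 1, stacked for each library, with controls to the left of the dotted line and fasted libraries to the right. Nnmt-201 (blue) is lower in fasted libraries, at 8.04 to 11.98 against 13.1 to 16.3 FPKM, and control replicate 6 holds 3.43 FPKM of Nnt-202 (green).

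Among 11196 other genes with a mean of at least 1 FPKM, those whose log2 values over the 12 libraries lay nearest to Nampt, each gene centred on its own mean, were Fmo2, Abcb1b and Omd. Their mean absolute differences from Nampt were 0.0835, 0.0936 and 0.111. This measure includes the difference between the groups, which all of them shared. Fmo2, a flavin-containing monooxygenase, went from 227 ± 19.9 to 455 ± 65.4 FPKM (SD, n = 6 each; limma, adjusted p = 1.77e-05), and like Nampt it was lowest in the fasted group in replicate 3. Nearest to Nnmt were Pmvk, a kinase of the mevalonate pathway, Znhit1, a subunit of a chromatin remodelling complex, and Fkbp2, a peptidyl-prolyl isomerase of the endoplasmic reticulum, at 0.0963, 0.0969 and 0.103. Pmvk went from 16.1 ± 0.707 to 10.9 ± 2.44 FPKM (SD, n = 6 each; limma, adjusted p = 0.00241). The call of Fkbp2 was lost where only identifiers matched with their version were used (-0.35, limma, adjusted p = 0.154).

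Genes around this pathway were read in 8 lists of 87 genes, of which 66 were tested. Of these 11 rose and 15 fell, beside the 13.8% and 17.9% of all genes. In the list of NAD glycohydrolases and the PARP family 5 of 18 tested genes rose and 3 fell. The list also holds Macrod1, a hydrolase of ADP-ribose, and Zc3hav1, a PARP family member without catalytic activity, and neither of them passed. The count that fell was 1 when control replicate 1 or 2 or fasted replicate 1 or 2 was left out, or with the most abundant transcript alone. Cd38, which cleaves NAD at the cell surface, went from 0.670 ± 0.181 to 1.26 ± 0.263 FPKM (SD, n = 6 each; 0.43 ± 0.10, limma, adjusted p = 0.00479), without overlap. That value was 0.92 with a pseudocount of 0.01. Parp1, the main PARP of DNA repair, fell from 14.3 ± 1.37 to 11.4 ± 0.348 FPKM (SD, n = 6 each; -0.30 ± 0.06, limma, adjusted p = 0.00225), also without overlap. Tiparp, a mono-ADP-ribosyl transferase, and Parp4, the PARP of vault particles, were among those that rose (0.35 and 0.26, limma, adjusted p = 0.00929 and 0.00652).

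Of the 7 sirtuins, deacylases that use NAD, 2 rose and 1 fell, beside 13.8% and 17.9% of all tested genes. Each of these sirtuin calls was lost under some alternative. Sirt2 went from 23.1 ± 1.21 to 26.3 ± 1.07 FPKM (SD, n = 6 each; 0.18 ± 0.04, limma, adjusted p = 0.00893), and its most abundant transcript alone did not pass (0.09, adjusted p = 0.199). Sirt1 rose by 0.34 ± 0.11 (limma, adjusted p = 0.0338). It no longer passed when any of 7 libraries was left out alone, control replicates 1, 2, 5 and 6 and fasted replicates 1, 4 and 5, with adjusted p of 0.0546 to 0.0686, nor with its most abundant transcript alone (0.64, adjusted p = 0.568) or a white adipocyte covariate (0.32, adjusted p = 0.161). That covariate is the mean level of markers of which 3 of 7 rose with the fast, so it overlaps with the difference between groups. With it 2671 genes were called in place of 3821. Whether adipocyte content accounts for any call lost with it, here or below, was not tested. Sirt5, a mitochondrial form, fell from 4.79 ± 0.813 to 3.52 ± 0.457 FPKM (SD, n = 6 each; -0.35 ± 0.10, limma, adjusted p = 0.0174), and did not pass with its most abundant transcript alone (-0.05, adjusted p = 0.838), with the replicate block (-0.35, adjusted p = 0.0600) or with a white adipocyte covariate (-0.33, adjusted p = 0.108). Sirt3, the main mitochondrial deacetylase, stood at 6.499 ± 0.666 and 7.10 ± 0.856 FPKM (SD, n = 6 each) and did not pass (0.11 ± 0.08, limma, adjusted p = 0.335), with the opposite sign (-0.29) for its most abundant transcript.

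Of 5 genes of nicotinamide and N-methylnicotinamide oxidation, 2 were tested and both rose, where 13.8% of all tested genes did. Aox2, Aox3 and Aox4 were not listed. Cyp2e1, a cytochrome P450, ran from 1.89 FPKM through 2.48 to 5.07 in controls and from 8.15 through 13.4 to 40.6 in fasted libraries. Fasted replicate 3, the library with the highest white adipocyte markers, held the highest value. The groups did not overlap, with means of 2.94 ± 1.20 and 18.2 ± 12.2 FPKM (SD, n = 6 each) and a difference of 2.13 ± 0.33 (limma, adjusted p = 3.80e-04). With a white adipocyte covariate that difference was 1.19 (adjusted p = 2.04e-04). Aox1, aldehyde oxidase, went from 7.52 ± 0.806 to 10.02 ± 1.2496 FPKM (SD, n = 6 each; 0.37 ± 0.08, limma, adjusted p = 0.00534). With the covariate it no longer passed (0.25, adjusted p = 0.103).

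Of 11 tested genes that carry or trim NAD precursors, 3 fell and 0 rose by limma, beside 17.9% and 13.8% of all tested genes. At an unadjusted p under 0.05, 1 rose. Also, 1 was called higher without control replicate 4 or fasted replicate 3, with the replicate block, or with a white adipocyte covariate. Enpp1, an ectoenzyme that splits dinucleotides, fell from 11.5 ± 1.23 to 8.60 ± 1.14 FPKM (SD, n = 6 each; -0.38 ± 0.09, limma, adjusted p = 0.00601), and did not pass with the adipocyte covariate (-0.33, adjusted p = 0.0657). The nucleoside transporter Slc29a2 fell from 0.956 ± 0.121 to 0.599 ± 0.110 FPKM (SD, n = 6 each; -0.29 ± 0.07, limma, adjusted p = 0.00652); with a pseudocount of 0.01 the difference was -0.67. Slc29a1, from the same family, fell as a sum of transcripts (61.8 ± 4.28 to 50.5 ± 5.44 FPKM, SD, n = 6 each; -0.29, limma, adjusted p = 0.00794), but its most abundant transcript had the opposite sign and did not pass (0.15, adjusted p = 0.215). Nt5c2, a cytosolic nucleotidase, did not pass over all libraries (0.40 ± 0.17, limma, adjusted p = 0.0932) and did without fasted replicate 3 (0.55, adjusted p = 0.00360) and with the adipocyte covariate (0.83, adjusted p = 0.00172).

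In the list of NADPH makers, 2 of 13 tested genes rose and 4 fell, beside 13.8% and 17.9% of all tested genes. With the adipocyte covariate 2 fell. The list also holds Mthfd2, which rose, and Me2, which fell, enzymes that work mainly with NAD in place of NADP. Mthfd2 and Aldh1l2, both enzymes of mitochondrial folate metabolism, moved in opposite directions. Mthfd2 rose 2.39-fold, from 9.85 ± 1.39 to 23.6 ± 2.30 FPKM (SD, n = 6 each; 1.18 ± 0.09, limma, adjusted p = 1.94e-06). Aldh1l2 fell 2.31-fold, from 5.33 ± 0.990 to 2.30 ± 0.258 FPKM (SD, n = 6 each; -0.93 ± 0.10, limma, adjusted p = 2.39e-05). Neither pair of groups overlapped. Me1, cytosolic malic enzyme, fell (-0.37 ± 0.05, limma, adjusted p = 2.88e-04), and H6pd, the hexose-6-phosphate dehydrogenase of the endoplasmic reticulum, rose from 22.6 ± 1.08 to 28.4 ± 2.66 FPKM (SD, n = 6 each; 0.31 ± 0.06, limma, adjusted p = 0.00164). The most abundant H6pd transcript alone did not pass (0.70, adjusted p = 0.170).

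Among 11 tested genes of NAD repair and turnover, 4 fell and 0 rose by limma, beside 17.9% and 13.8% of all tested genes. At an unadjusted p under 0.05 also 0 rose, and 1 was called higher without fasted replicate 1. The median difference was -0.24, beside -0.02 for all tested genes. Naxe, the epimerase that repairs hydrated NADH and NADPH, fell from 35.5 ± 1.77 to 26.8 ± 1.497 FPKM (SD, n = 6 each; -0.39 ± 0.05, limma, adjusted p = 9.47e-05). Nudt13, a mitochondrial hydrolase of NADH, fell 1.95-fold, from 4.08 ± 0.302 to 2.09 ± 0.576 FPKM (SD, n = 6 each; -0.74 ± 0.11, limma, adjusted p = 3.10e-04). Neither pair of groups overlapped. Nudt14 fell as well (-0.47 ± 0.10, limma, adjusted p = 0.00389), with -0.77 at a pseudocount of 0.01, and did not pass with the adipocyte covariate (-0.38, adjusted p = 0.0607). Hddc3, a phosphatase of NADPH, fell (-0.66 ± 0.20, limma, adjusted p = 0.0242). It did not pass without control replicate 3 (-0.57, adjusted p = 0.0536), with the replicate block (-0.66, adjusted p = 0.0566) or with the covariate (-0.56, adjusted p = 0.164).

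The route from tryptophan was mostly below the table. Of 11 genes only Kyat1, Kyat3 and Afmid were listed, and 0 of these 3 were called by limma (0 also at an unadjusted p under 0.05). Kyat1, a kynurenine aminotransferase, stood at 1.09 ± 0.424 and 1.61 ± 0.523 FPKM (SD, n = 6 each; adjusted p = 0.180). It passed without fasted replicate 2 (0.44, adjusted p = 0.0335) and with its most abundant transcript alone (0.77, adjusted p = 0.0166). Kyat3, also an aminotransferase, did so with its most abundant transcript alone (0.45, limma, adjusted p = 0.0333). Qprt and Nmrk2 were not listed.

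**Figure D5:**
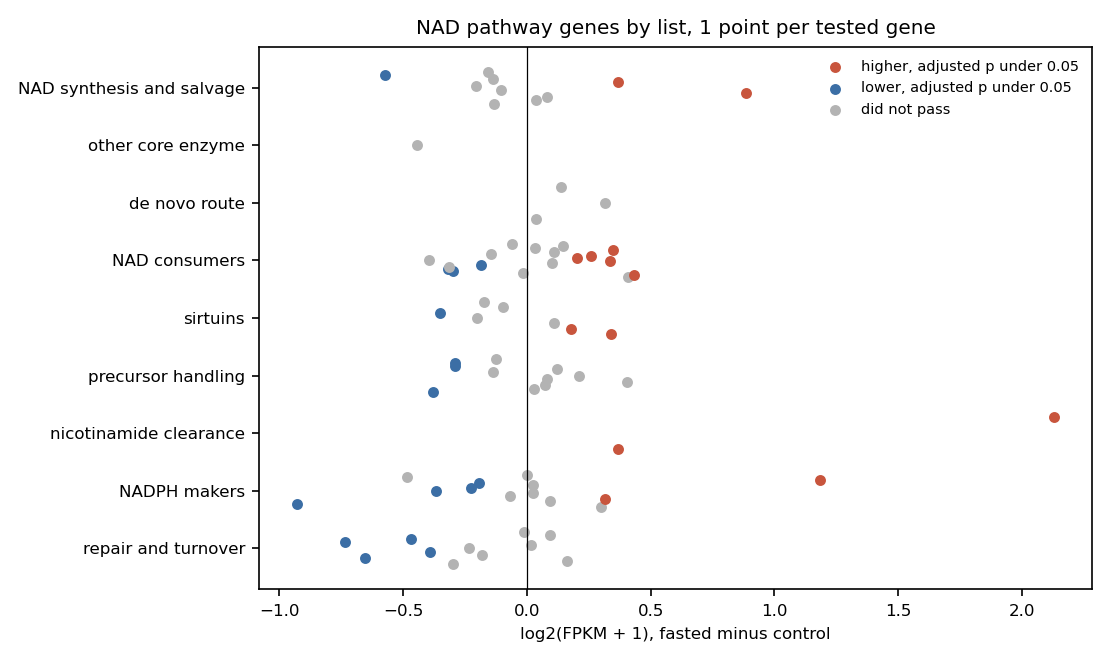
Difference of each tested gene, as log2(FPKM + 1) in fasted less control, in the 10 NAD synthesis and salvage genes and the 8 lists around them, with 1 point per gene; red and blue mark genes called higher and lower by limma, and grey those that did not pass. The repair and turnover row holds 4 genes of 11 called lower and none called higher, beside 17.9% and 13.8% of all tested genes. Cyp2e1 at 2.13 lies farthest to the right.

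All 8 markers of smooth muscle, the main cell of the aortic wall, were listed, with sums of 8734 to 10970 FPKM per library. None of the hepatocyte and lymphocyte markers was listed. White adipocyte markers differed between the groups: 3 of 7 tested (Fabp4, Lipe and Cidec) rose, and their sum was 72.7 to 140 FPKM in controls and 176 to 417 in fasted libraries, highest in fasted replicate 3. Fabp4, which endothelial cells and macrophages also express, made up most of that sum, with means of 67.8 and 195 FPKM. Lep was not listed, and Adipoq and Plin1 did not pass (2.97 to 6.25 FPKM and 1.00 to 2.05 FPKM in the means, adjusted p = 0.164 and 0.205 by limma). Cfd (20.6 to 39.2 FPKM, adjusted p = 0.340) and Retn (1.62 to 1.59 FPKM, adjusted p = 0.788) did not pass either. Of 5 tested brown adipocyte markers 2 rose, with sums of 32.7 to 57.9 and 45.6 to 89.4 FPKM. Of 8 endothelial markers 1, Pecam1, rose, with sums of 153 to 230 and 203 to 284 FPKM. Pecam1 alone went from 91.0 to 155 FPKM in the means, while Cdh5, Vwf, Kdr and Esam did not pass and Tek, Emcn and Tie1 had small negative differences that did not pass (-0.08, -0.08 and -0.03). Fibroblast markers gave 4 higher and 1 lower of 8. Dpep1 (42.7 to 89.6 FPKM in the means), Scara5, Pdgfra and Dcn rose and Lum fell, while Col1a1, Pi16 and Dpt did not pass. Beside all these marker counts, 13.8% of all tested genes were called higher and 17.9% lower. Of macrophage and of smooth muscle markers 1 rose and 1 fell, of 8 each. Of 5 erythroid and 2 listed skeletal muscle markers 0 were called (0 also at an unadjusted p under 0.05), with erythroid sums of 375 to 2819 FPKM and skeletal muscle sums of 2.66 to 5.28 FPKM.

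With the mean white adipocyte marker level as a covariate, Nampt differed by 1.08 (limma, adjusted p = 1.16e-04), Nmnat3 by 0.38 (adjusted p = 0.0434) and Nnmt by -0.82 (adjusted p = 2.66e-04), while Nnt differed by -0.02 (adjusted p = 0.919). Fasted replicate 3 stood apart on the second principal component of all tested genes, which held 12.8% of the variance. The part of endothelial, fibroblast and brown adipocyte RNA in these differences was not tested. Without fasted replicate 3 and control replicate 6 the 10 genes gave 2 higher and 2 lower, the added one being Nnt (-0.23, limma, adjusted p = 0.00551). In that fit 3859 of all genes were called, beside 3821 with all libraries, so its counts also stand against a large background. Without those libraries the glycohydrolase and PARP list, named NAD consumers in the plot of differences by list, gave 6 higher and 3 lower, sirtuins 1 and 1, precursor handling 1 and 3, nicotinamide oxidation 2 and 0, NADPH makers 2 and 4, and repair and turnover 0 and 5.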

How the data were processed

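Poly(A) RNA of 12 aorta samples was sequenced as strand-specific paired reads, per the labels' protocols, which also state that fat was removed by dissection. The authors deposited FPKM values for 22699 transcripts; FastQC, cutadapt, HISAT2 and StringTie on GRCm38 are named per the submitters' processing notes, and no version, setting or annotation release is stated. Every listed transcript had a mean of at least 0.50 FPKM in 1 group. Depth is unknown, so no counting interval was computed; listed values summed to 299588 to 327492 FPKM per library, with 21853 to 22197 transcripts above 0. FPKM divides by the library total, so abundant genes can shift others.

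Transcripts were assigned through GENCODE M21 (21493 identifiers with their version, 1162 with another, 44 unmatched, holding 0.117% of FPKM) and summed per gene, with the 2 Nnt identifiers joined. A gene was tested if 6 or more libraries held 0.5 FPKM or more of it. The two-sided test was that of limma 3.58.1 (R 4.3.3; eBayes, trend on the mean), run on log2(FPKM + 1) and adjusted by Benjamini-Hochberg over all 12062 genes. Transcripts were tested likewise; shares were tested only for genes that reached 1 FPKM in each library. The planned count tests did not apply to FPKM. The fits were tested on simulated data. Between any 2 libraries 2.34% to 7.06% of genes were within 1% of each other, so none was a duplicate.

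The 10 genes and all lists were chosen with earlier results of these data known. All 10 are named, with up to 4 genes of smallest p per pathway list, any list gene called with at least 1.5-fold, and the 3 genes nearest to Nampt and to Nnmt. Other values named were chosen after they were seen. Alternatives changed the pseudocount, filter, scaling, gene summary, identifier match, variance model, block, covariate and libraries.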

Additional observations from a re-analysis of the deposited data

Results flagged for a closer look

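Each value below lay farther from its group of 6 than Dixon's limit for the gap over the range. In all 19 of 112 tested groups did so, where chance flags about 1 in 20.

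Among the NAD synthesis and salvage genes, Naprt stood at 4.74 FPKM in fasted replicate 3, against 3.70 to 4.08 in the others. Nmnat1 stood at 5.37 FPKM in control replicate 5, against 3.23 to 4.00. Nnt stood at 18.1 FPKM in control replicate 6, against 24.6 to 27.7, and this library decides whether Nnt is called.

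Among their transcripts, Nmnat1-201 reached 3.43 FPKM in control replicate 5 and Nmnat1-202 reached 1.48 in fasted replicate 5. Nnmt-201 was 11.98 FPKM in fasted replicate 3, the library with the highest adipocyte markers. Nnt-202 was 3.43 FPKM in control replicate 6 and 0.0819 in fasted replicate 1, while Nnt-206 was 14.0 in control replicate 6. Nnt-202 was listed only through control replicate 6, with a control mean of 0.640 FPKM. Its control flag was thus favoured in advance, and it remains in the count of flagged groups.

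Among other genes, Nmnat2 was listed at 0 FPKM in control replicate 4. Afmid was 2.40 FPKM in control replicate 2 and 2.58 in fasted replicate 4, Sirt2 was 25.4 in control replicate 6, and Omd was 27.5 in control replicate 4. In fasted replicate 3 Aox1 was 12.4 FPKM and Fmo2 was 328. In fasted replicate 1 H6pd was 33.7 FPKM, Naxe 23.8 and Hddc3 0.874. What sets these libraries apart was not tested.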

How the results depend on the processing

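Nampt (0.82 to 1.08), Nmnat3 (0.32 to 0.66) and Nnmt (-0.82 to -0.52) kept their direction and stayed past the threshold in all 24 alternatives run, with adjusted p of at most 0.00169, 0.0434 and 0.00518 by limma. The count of all genes called was 2671 to 4168. The 10 genes called higher numbered 2 throughout; those called lower numbered 1 to 2 when 1 library was left out and 2 when control replicate 6 and fasted replicate 3 were left out together, an alternative added after seeing the data, as was splitting Nnt by identifier. Transcripts called lower numbered 1 to 2, the added one being Nnt-206 without control replicate 6. Signs turned for Nadk2 (-0.21 with the most abundant transcript alone, -0.084 to 0.13 with 1 library left out, negative without control replicates 5 and 6 and fasted replicates 4 and 5, and -0.053 without the pair) and for Afmid (-0.17 to 0.23 with 1 library left out, negative without control replicates 3, 4 and 6 and fasted replicate 4). With the most abundant transcript alone they turned for Sirt3 (-0.29) and Slc29a1 (0.15). The cause was not tested. Replicate numbers did not pair the libraries (correlations of -0.006 to 0.084; 3 of 12 libraries correlated best with their own number). With the replicate block 3651 genes were called, with limma adjusted p of 0.00169 for Nampt, 0.0147 for Nmnat3 and 0.00281 for Nnmt. Nmnat2, which is listed only through its control group, also passed with the block (limma, adjusted p = 0.0393). The count tests of edgeR and DESeq2 were not run, since the values are not counts. Depth is unknown, so the precision of low genes such as Nadsyn1 and Nmnat3 rests on replicate spread alone.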
